A study of Mus musculus with 10 samples.

Results

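The 6 genes of the core microRNA production line were followed across limb buds of Dicer mutant and wild type mouse embryos: Dicer1, Drosha, Dgcr8, Xpo5, Tarbp2 and Prkra. They were chosen by name for their known roles, and every probe set annotated to exactly 1 of these symbols was taken. That gave 15 of the 45101 probe sets on the array, for 6 of 18193 gene symbols. Dgcr8 had 4 probe sets, Drosha had 3, and Dicer1, Xpo5, Tarbp2 and Prkra had 2 each. Of the 15, 12 passed the filter on dim signals (a mean over the 10 arrays of at least 151.4), and 1 each of Drosha, Dgcr8 and Prkra did not.

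The series holds 10 Affymetrix arrays of limb bud RNA, 5 labelled Dicer mutant and 5 labelled wild type, numbered 1 to 5 in each group. One parent of the cross was heterozygous for a floxed Dicer allele and carried the prxcre driver, and the other parent was homozygous for the floxed allele, so every embryo in either group inherited at least 1 floxed allele. The prxcre transgene drives Cre recombinase in limb bud mesenchyme, and other cells of the limb bud, such as ectoderm and blood, lie outside its known domain. The sources used here do not give whether heterozygous embryos are among those labelled wild type, the embryonic stage, the use of forelimbs or hindlimbs, or the number of embryos behind an array, so the p-values reflect only how these samples vary, and that variation may be technical. In whole limb buds, fewer cells of a type and less RNA per cell cannot be told apart.

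MicroRNAs start as long primary transcripts that fold into hairpins. In the nucleus the Microprocessor, made of the RNase III enzyme Drosha and its RNA-binding partner Dgcr8, cuts the base of the hairpin, and exportin 5, encoded by Xpo5, carries the freed precursor to the cytoplasm. There Dicer, encoded by Dicer1, cuts off the loop. Dicer works with the double-stranded RNA-binding proteins TRBP and PACT, encoded by Tarbp2 and Prkra. In limb mesenchyme Dicer is known to be needed for normal growth of the limb. The mouse let-7a-1 hairpin (RefSeq, GRCm38.p6, chr13:48538179-48538272, minus strand) is shown because it carries the marks of both cutting steps. The capitals are its mature arms, 5′ arm first: the outer side of the stem is where the Microprocessor cuts and the side toward the loop is where Dicer cuts.
let-7a-1: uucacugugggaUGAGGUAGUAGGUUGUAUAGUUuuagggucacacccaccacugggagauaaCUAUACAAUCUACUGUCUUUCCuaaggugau

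Of the 10 arrays, 3 stood apart or went against their labels. Both Dicer1 probe sets went against the label in the array labelled Dicer mutant 2 and in the array labelled wild type 2, so each comparison is given for the 10 arrays as labelled and for the 8 arrays left without number 2. The array wild type 5 also stood apart. It had 376 tested probe sets more than 0.5 log2 units outside the range of all other arrays, where each of the others had 2 to 76. Its 18S ribosomal RNA control signal was 2270.2 at the 3′ probe set, against 317 to 450 in the other 9 arrays, and its ratio of 5′ to 3′ actin control signal was the lowest, at 0.664 against 0.740 to 0.840. At the middle 18S probe set it had 1294 against 175 to 226, but at the 5′ one it had 2008 and Dicer mutant 1 had 1874, against 173 to 540.4 in the other 8 arrays. Values without wild type 5 are given beside each tested member. The median signal per array ranged from 145.8 to 152.8, and precision is limited by how many arrays there are. Limb mesenchyme markers were present in both groups (10 of 10 over the filter, with summed signals of 15215 to 17839 in Dicer mutant arrays and 14659 to 17349 in wild type arrays). In the 8 arrays limma called 0 genes of the mesenchyme, ectoderm, blood, macrophage, endothelium, muscle and nerve marker lists, and 2 of 10 mesenchyme, 1 of 9 ectoderm and 3 of 5 macrophage markers over the filter had an unadjusted p below 0.05, as did 12.7% of all tested probe sets. The summed signal of the 7 macrophage markers was 1805, 1481, 1765, 1881 and 1609 in Dicer mutants 1 to 5, against 1548, 2098, 1579, 1675 and 1486 in wild types 1 to 5. It was higher in Dicer mutant within numbers 1, 3, 4 and 5 and lower within number 2. Its part in the results was not tested.

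Dicer1, the targeted gene, was lower in Dicer mutant than in wild type within numbers 1, 3, 4 and 5, and higher within number 2. The signals of probe set 1427941_at were 226, 360, 221, 215 and 205 in Dicer mutants 1 to 5, against 425, 233, 372, 390 and 706 in wild types 1 to 5. The differences in log2 signal within numbers 1 to 5 were -0.91, 0.63, -0.75, -0.86 and -1.78. The array labelled Dicer mutant 2 thus lay near the wild type arrays, the array labelled wild type 2 lay among the mutant arrays, and the groups as labelled overlapped. At 1460571_at the signals were 555, 774, 523, 534 and 506 in Dicer mutants 1 to 5, against 771, 551, 753, 707 and 940 in wild types 1 to 5, with the same 2 arrays on the wrong side for their label. Across the 10 arrays its log2 signal followed that of 1427941_at with a Pearson r of 0.976, and 0.976 without wild type 5, as a description over arrays that both probe sets share. The position of these probe sets against the floxed exon was not stated in the sources used here, so the remaining signal cannot be read as intact transcript.

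**Figure D1:**
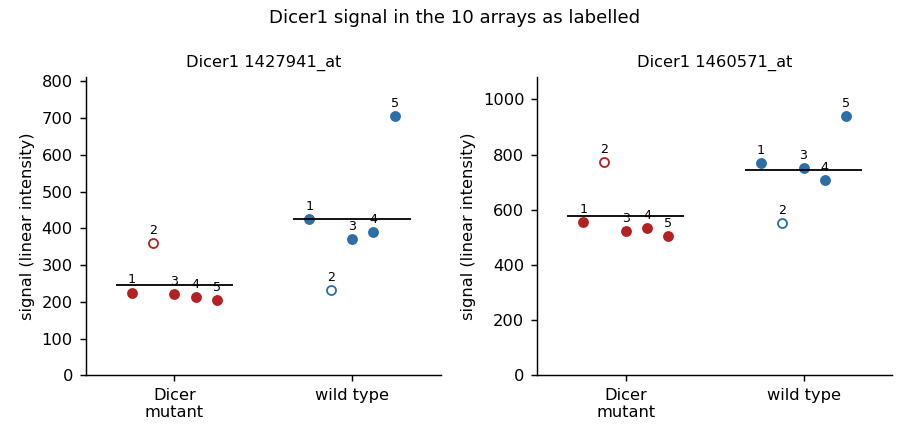
Signal (linear intensity, vertical axis from 0) of the Dicer1 probe sets 1427941_at and 1460571_at in each array, Dicer mutant left of wild type. Points carry the array number, open circles are the arrays numbered 2, and lines are means of the 5 arrays; for 1427941_at the array labelled Dicer mutant 2 stands at 360 and the array labelled wild type 2 at 233.

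With the 10 arrays as labelled, Dicer1 averaged 245 ± 64.4 in Dicer mutant arrays and 425 ± 173 in wild type arrays at 1427941_at (SD, n = 5 each). The log2 difference was -0.74 (95% interval -1.28 to -0.19), with p = 0.0159 by an exact permutation test (two-sided). Leaving out any 1 of wild type 1, 3, 4 or 5 ended this call (exact permutation p = 0.0556 each), with a difference of -0.53 without wild type 5. At 1460571_at the averages were 579 ± 111 in Dicer mutant arrays and 744 ± 139 in wild type arrays, with a log2 difference of -0.36 (95% interval -0.69 to -0.03) and an exact permutation p of 0.0952 (-0.27 without wild type 5). The smallest p this design allows is 0.00794. In limma across all tested probe sets the adjusted p was 1 for both. Limma called 0 of the 12 tested member probe sets in the 10 arrays at an adjusted p below 0.05, where it called 0% of all 22519. At an unadjusted p below 0.05 both Dicer1 probe sets and no other member passed, beside 632 of all tested probe sets (2.81%).

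Without number 2, the Dicer1 arrays of each label drew together. At 1427941_at the 4 Dicer mutant arrays averaged 217 ± 9.03 and the 4 wild type arrays 473 ± 156 (SD), a log2 difference of -1.08, or 2.11-fold lower. At 1460571_at the Dicer mutant arrays averaged 529.7 ± 20.4 and the wild type arrays 793 ± 102, a log2 difference of -0.57, or 1.49-fold lower. These are descriptions with no test, because Dicer1 itself decided which arrays were set aside. Wild type 5 had the highest signal of all arrays at both probe sets, 303% and 169% of the median of the other 9 arrays. Without it as well, the differences were -0.87 and -0.49.

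Drosha, the enzyme of the Microprocessor, did not pass the test at either tested probe set. At 1438505_s_at the signals were 2227, 1703, 2230, 1885 and 2138 in Dicer mutants 1 to 5, against 2182, 2050, 1818, 1769 and 2287 in wild types 1 to 5. The groups overlapped throughout, and the lowest and highest arrays were the array labelled Dicer mutant 2 and wild type 5. Its log2 difference was 0.01 (95% interval -0.21 to 0.23) in the 10 arrays and 0.08 (-0.15 to 0.31, limma adjusted p = 0.87) in the 8 arrays. Probe set 1428656_at had 794, 650.4, 797, 676 and 753 in Dicer mutants 1 to 5, against 783, 673, 676, 597 and 847 in wild types 1 to 5. Its difference was 0.04 (-0.19 to 0.28) in the 10 arrays and 0.07 (-0.20 to 0.33, limma adjusted p = 0.919) in the 8. Without wild type 5 the 8-array difference was 0.14 at 1438505_s_at (limma adjusted p = 0.548) and 0.15 at 1428656_at (adjusted p = 0.612), and the 10-array differences were 0.06 and 0.11. The third probe set, 1438440_at, was too dim to be tested, at 127 to 167 in Dicer mutant arrays and 135 to 158 in wild type arrays. The tested pair moved together across the 10 arrays (Pearson r 0.919), while the dim one did not follow 1428656_at (r -0.438).

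Dgcr8, the RNA-binding partner of Drosha, did not pass the test, and its difference between the groups rested on 1 array, wild type 5. At 1435439_at the signals were 501, 527, 577, 529 and 535 in Dicer mutants 1 to 5, against 508, 558, 499, 506 and 264 in wild types 1 to 5. Probe set 1455311_at had 687, 624, 776, 567 and 560.1 in Dicer mutants 1 to 5, against 664, 619.6, 668, 595 and 269.9 in wild types 1 to 5. Probe set 1422981_at had 181, 188, 239, 218 and 228 in Dicer mutants 1 to 5, against 223, 248, 188, 232 and 123 in wild types 1 to 5. At all 3 probe sets wild type 5 was the lowest of the 10 arrays, and the other 4 wild type arrays lay inside or close to the range of the mutants. The fourth probe set, 1446169_at, was too dim to be tested (129 to 161 in Dicer mutant arrays, 131 to 148 in wild type arrays), and wild type 5 was at 96.6% of the median of the others there. Probe sets 1435439_at and 1455311_at were designed from the same source transcript record, so their values are not separate evidence.

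The log2 differences of Dgcr8 in the 8 arrays were 0.21 (95% interval -0.21 to 0.64) at 1422981_at, 0.32 (-0.13 to 0.77) at 1435439_at and 0.31 (-0.31 to 0.93) at 1455311_at, with limma adjusted p-values of 0.771, 0.614 and 0.772. In the 10 arrays they were 0.09 (-0.28 to 0.47), 0.24 (-0.14 to 0.62) and 0.25 (-0.25 to 0.75). Leaving out wild type 5 brought the 8-array differences to 0.01 (-0.25 to 0.28), 0.09 (-0.08 to 0.25) and -0.00036 (-0.29 to 0.29). Without it the 10-array differences were -0.08, 0.04 and 0.004, so the sign at 1422981_at turned.

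In wild type 5, Dgcr8 stood at 55.1%, 50.2% and 43.2% of the median of the other 9 arrays at 1422981_at, 1435439_at and 1455311_at. Between 0.271% and 1.1% of all tested probe sets lay at least as far from their own median, in the same direction, in that array. The 14 tested genes among the 10 nearest on each side of Dgcr8 on its chromosome deviated by -0.33 (Trmt2a) to 0.21 (Rtn4r) log2 units in wild type 5. Dgcr8 deviated by -0.86, -0.99 and -1.21 at these 3 probe sets. Of its immediate neighbours, Trmt2a lay on one side and Tango2, at 0.03, on the other. Outside the range of the other 9 arrays lay 3 of the 14, and the share over all tested probe sets was not counted. Each neighbour was read by its brightest tested probe set, and some were close to the filter of 151.4, such as Tbx1 at 159 in wild type 5. Whether Dgcr8 and the genes around it share a cause was not tested. Wild type 5 also had the highest summed signal of the 5 endothelium markers, 1705 against 1132 to 1321 in Dicer mutant arrays and 1116 to 1240.2 in the other wild type arrays. Its high 18S signal, low actin ratio and high endothelium markers were seen in the same single array as its low Dgcr8 value. Their part in that value was not tested.

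**Figure D2:**
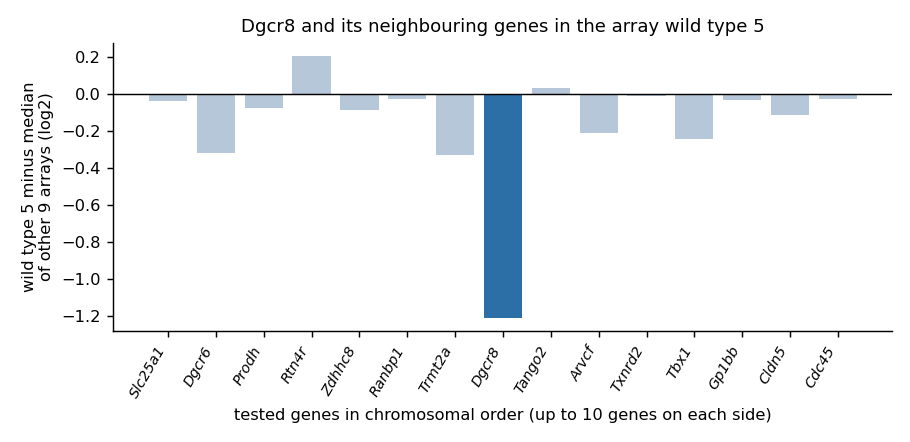
Signal of Dgcr8 (dark bar, probe set 1455311_at) and its 14 tested neighbouring genes in the array wild type 5, as the log2 difference from the median of the other 9 arrays, in chromosomal order. Dgcr8 stands at -1.21, and the neighbours lie between -0.33 and 0.21.

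The Microprocessor is known to cut hairpins in the Dgcr8 messenger RNA itself, and RefSeq places 2 microRNA hairpins inside the Dgcr8 gene. Their 4 mature products are shown because they come from the transcript whose level differed between arrays. The seeds, bases 2 to 8 and set in capitals, are all different. All lie on the minus strand of chromosome 16 in GRCm38.p6: miR-3618-5p at chr16:18284602-18284623, miR-3618-3p at chr16:18284562-18284583, miR-1306-5p at chr16:18284288-18284310 and miR-1306-3p at chr16:18284248-18284268.
miR-3618-5p: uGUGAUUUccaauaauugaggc
miR-3618-3p: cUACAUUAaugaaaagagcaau
miR-1306-5p: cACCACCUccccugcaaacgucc
miR-1306-3p: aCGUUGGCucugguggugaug
The arrays did not measure these microRNAs, so nothing is known here of their levels. Xpo5 holds 1 annotated hairpin and the other members none.

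Xpo5, the nuclear export receptor for precursor hairpins, did not pass the test. At 1428560_at the signals were 685, 668, 687, 567 and 616 in Dicer mutants 1 to 5, against 715, 703, 706, 545 and 647 in wild types 1 to 5. The mutant was lower in 4 of the 5 numbers, by small amounts, and the groups overlapped. Its log2 difference was -0.04 (95% interval -0.25 to 0.17) in the 10 arrays and -0.03 (-0.28 to 0.22, limma adjusted p = 0.969) in the 8. Probe set 1451468_s_at had 529.9, 488, 566, 435 and 481 in Dicer mutants 1 to 5, against 572, 615, 574, 405 and 447 in wild types 1 to 5. Its difference was -0.05 (-0.33 to 0.22) in the 10 arrays and 0.02 (-0.29 to 0.33, limma adjusted p = 0.985) in the 8, so its sign depended on number 2. Without wild type 5 both 8-array differences were -0.03, and the 10-array differences were -0.04 at 1428560_at and -0.10 at 1451468_s_at.

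Tarbp2, whose product TRBP binds Dicer and stabilises it in human cells, did not pass the test. At 1438952_x_at the signals were 345, 371, 331, 286 and 321 in Dicer mutants 1 to 5, against 382, 390.4, 392, 348 and 312 in wild types 1 to 5. The mutant was lower in numbers 1 to 4 and higher in number 5, and the groups overlapped. The log2 difference was -0.14 (95% interval -0.34 to 0.06) in the 10 arrays and -0.16 (-0.38 to 0.06, limma adjusted p = 0.602) in the 8. Probe set 1423616_at had 365, 389, 335, 266 and 255 in Dicer mutants 1 to 5, against 409.6, 387, 404, 282 and 248 in wild types 1 to 5. Its difference was -0.10 (-0.46 to 0.27) in the 10 arrays and -0.12 (-0.54 to 0.30, limma adjusted p = 0.903) in the 8. Without wild type 5 the 8-array differences were -0.22 (-0.43 to -0.02, adjusted p = 0.25) at 1438952_x_at and -0.25 (-0.66 to 0.15, adjusted p = 0.565) at 1423616_at. The first of these was the only member other than Dicer1 with an unadjusted p below 0.05 there. The 10-array differences without wild type 5 were -0.20 (-0.39 to -0.0064, unadjusted p = 0.044, limma adjusted p = 0.997) at 1438952_x_at and -0.21 (-0.55 to 0.14) at 1423616_at. For the fits without wild type 5, the share of all tested probe sets with an unadjusted p below 0.05 was not counted. In the 8 arrays that share was 12.7%. A probe set with the suffix x can also bind transcripts of other genes.

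Prkra, which encodes PACT, a Dicer partner also known as an activator of the double-stranded RNA-dependent kinase PKR, did not pass the test. At 1448923_at the signals were 1056, 991, 1011, 1120.3 and 1121 in Dicer mutants 1 to 5, against 966, 1054, 995, 1098 and 1104 in wild types 1 to 5. The standard deviation was 5.71% of the mean in Dicer mutant arrays and 5.88% in wild type arrays, where the other tested members had 5.14% to 26.3% and 9.46% to 40.7%. The log2 difference was 0.02 (95% interval -0.13 to 0.18) in the 10 arrays and 0.05 (-0.12 to 0.23, limma adjusted p = 0.901) in the 8, and 0.04 and 0.08 without wild type 5. The second probe set, 1447737_at, lay far under the filter, at 5.76 to 11.6 in Dicer mutant arrays and 9.09 to 15.5 in wild type arrays.

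**Figure D3:**
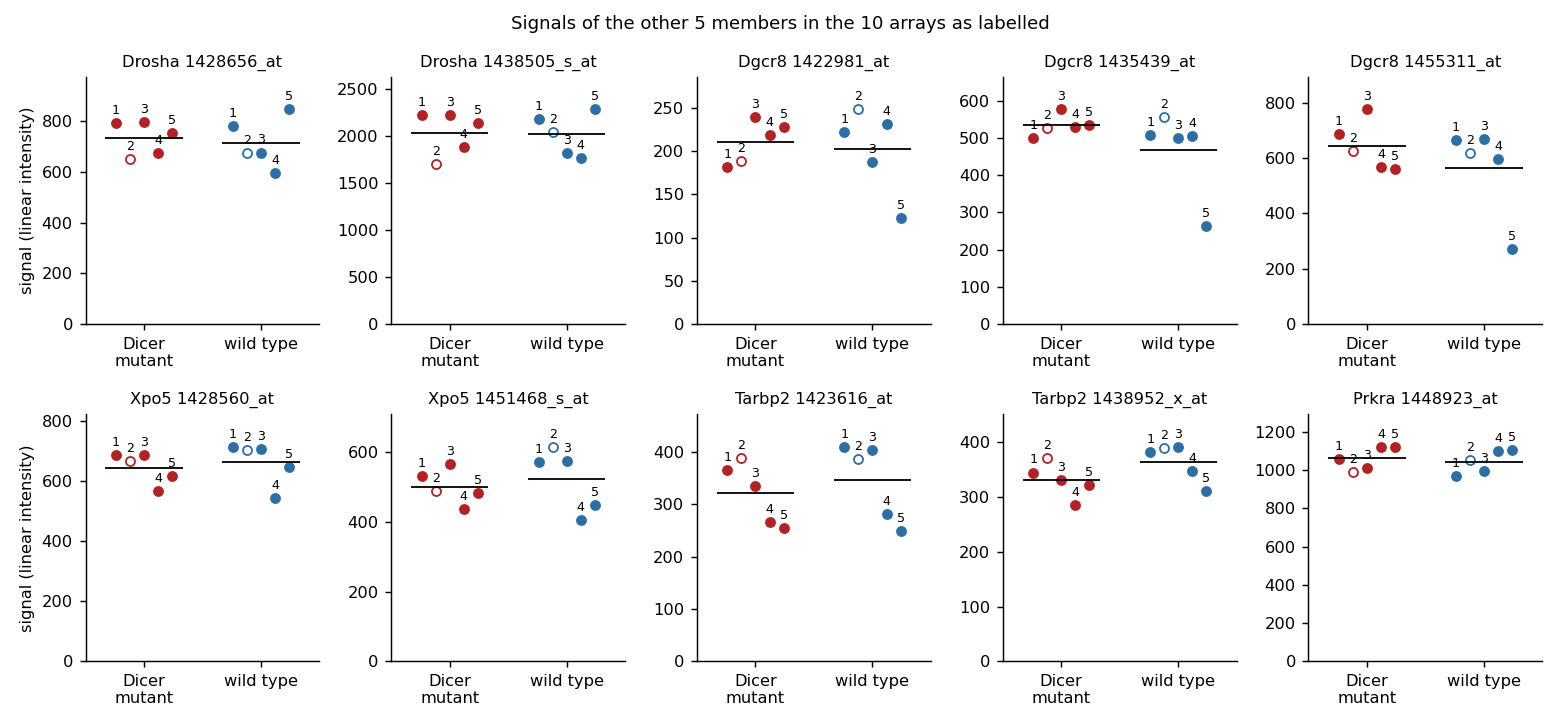
Signal (linear intensity, vertical axes from 0) of the 10 tested probe sets of Drosha, Dgcr8, Xpo5, Tarbp2 and Prkra in each array, Dicer mutant left of wild type, with array numbers, open circles for number 2 and lines at the means. The groups overlap in all 10 panels, and wild type 5 lies below every other array in the 3 Dgcr8 panels.

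Taking the members other than Dicer1 as a set of 10 tested probe sets, limma called 0 of them in the 8 arrays, where it called 378 of 22519 probe sets (1.68%), 209 higher (0.928%) and 169 lower (0.75%). None had an unadjusted p below 0.05, against 12.7% of all tested probe sets. With a replicate block for the array number, the calls over all probe sets came to 1219 (5.41%) and the members' to 0. The differences in the 8 arrays were above 0 for 7 of the 10 and below 0 for 3, with a median of 0.06 on the log2 scale, beside -0.0064 over all tested probe sets. Without wild type 5 as well they were above 0 for 5 and below 0 for 5, with a median of 0.0072 beside -0.0094. In the 10 arrays they were above 0 for 6 and below 0 for 4, with a median of 0.016 beside -0.021. The 95% intervals of the 10 reached at most from -0.54 (Tarbp2 1423616_at) to 0.93 (Dgcr8 1455311_at) in the 8 arrays, and from -0.66 to 0.40 without wild type 5, and changes inside an interval cannot be told from none. In the 10 arrays the Dicer mutant and wild type groups overlapped for all 12 tested members, where 0.4% of all tested probe sets did not overlap. They overlapped in the 8 arrays for the 10 members other than Dicer1, where 9.09% of all tested probe sets did not overlap.

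**Figure D4:**
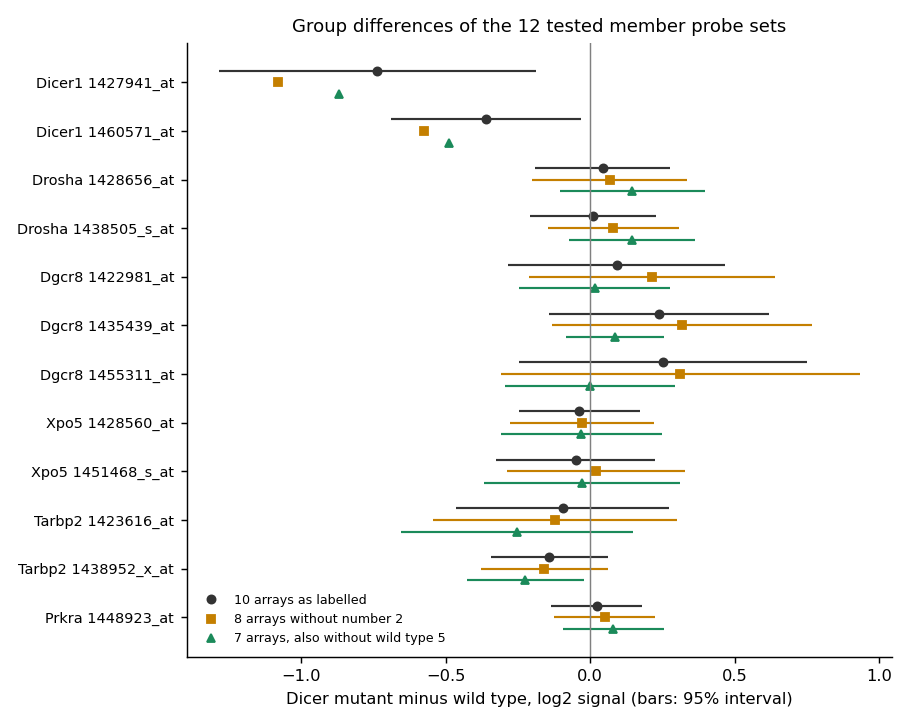
Dicer mutant minus wild type difference in log2 signal for the 12 tested member probe sets, with 95% intervals as bars, in the 10 arrays as labelled (circles), the 8 arrays without number 2 (squares) and the 7 arrays also without wild type 5 (triangles). Dicer1 in the 8 and 7 arrays has no bar because it chose those arrays; the Dgcr8 squares at 0.21 to 0.32 move to between -0.00036 and 0.09 without wild type 5.

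A division by array number ran through several members and cut across the groups. Signals in the 4 arrays numbered 4 and 5 lay wholly below those in the 6 arrays numbered 1 to 3 for Xpo5 (545 to 647 against 668 to 715 at 1428560_at, and 405 to 481 against 488 to 615 at 1451468_s_at). The same held for Tarbp2 1423616_at (248 to 282 against 335 to 410) and for Dgcr8 1455311_at (270 to 595 against 619.6 to 776). Prkra 1448923_at lay wholly above (1098 to 1121 against 966 to 1056). No label names this division, and 20% of all tested probe sets were separated by it. Dicer1 and Drosha were not separated at any probe set, nor were Dgcr8 1422981_at and 1435439_at or Tarbp2 1438952_x_at. Within numbers 1 and 3 alone and within numbers 4 and 5 alone, none of the 10 tested probe sets of the other members passed the test (limma called 3.61% and 0% of all probe sets there). Both Tarbp2 probe sets had an unadjusted p below 0.05 within numbers 1 and 3, at -0.20 and -0.22, where 20.3% of all tested probe sets did. Within numbers 4 and 5, 0 of the 10 members and 9.47% of all tested probe sets did.

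The genes whose log2 signal followed each member most closely were found among 11600 genes, each by its brightest tested probe set, as Pearson r over the 10 arrays. These are descriptions, and the genes share the arrays, groups and numbers behind the values. For Dicer1 they were Ndufb11, a subunit of mitochondrial complex I (r 0.986), Zfp560 (0.982) and Mcts1 (0.978), and the most opposed were Ubxn2a (-0.989), Cep97 (-0.983) and Elk4 (-0.981). For Drosha they were Hey1, a Notch target and transcriptional repressor (0.968), Tiam1 (0.944) and Arhgap45 (0.943). For Dgcr8 they were Unc50 (0.97), Tedc2 (0.962) and Atg4d (0.956), and without wild type 5 these values were 0.715, 0.864 and 0.794. For Xpo5 they were Dnmt1, the maintenance DNA methyltransferase (0.966), Rab35 (0.964) and Arrb1 (0.964). For Tarbp2 they were Abhd4 (0.976), B9d2 (0.972) and Card19 (0.971), and for Prkra Socs4 (0.969), BC055324 (0.963) and Cert1 (0.963). The Tarbp2 and Abhd4 probe sets compared here both carry the suffix x.

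Beyond the 6 members, a list of 26 other genes of the microRNA pathway was read from the same fits, and 23 of them passed the filter on dim signals (Ago4, Lin28a and Lin28b did not). Each gene was read by its brightest tested probe set, and other probe sets of these genes are not shown. In the 10 arrays limma called 0 of the 23 (0% of all probe sets), and 1, Tnrc6a, had an unadjusted p below 0.05, beside 2.81% of all tested probe sets. In the 8 arrays 1 rose, 0 fell and 22 did not pass (0.928% of all probe sets were called higher and 0.75% lower), with a median log2 difference of 0.06 and a range of -0.21 to 0.73. Tnrc6a, Ago2, Tnrc6b and Xrn2 had an unadjusted p below 0.05 there, beside 12.7% of all tested probe sets. The gene that rose was Tnrc6a, which encodes the GW182 protein that joins Argonaute to the machinery that silences target RNAs. Its signals were 3128, 1573, 2942, 2559.8 and 2882 in Dicer mutants 1 to 5, against 1938, 2662, 1758, 1554 and 1679 in wild types 1 to 5. Both arrays numbered 2 lay on the side opposite to their label, as they did for Dicer1. In the 8 arrays its log2 difference was 0.73 (SE 0.087, limma adjusted p = 0.00573), and 0.72 (adjusted p = 0.01) without wild type 5. In the 10 arrays it was 0.43 (SE 0.19, adjusted p = 1), so the call rests on leaving out number 2, a pair set aside for Dicer1. The Argonaute gene Ago2 was at 0.19 in the 10 arrays (adjusted p = 1) and 0.40 in the 8 (adjusted p = 0.183), and passed the test without wild type 5 (0.51, adjusted p = 0.0223), as did the cap-binding complex gene Ncbp2 in the other direction (-0.30, adjusted p = 0.0485, against -0.21, adjusted p = 0.395, with it, and -0.14, adjusted p = 1, in the 10 arrays). Over the 7 arrays without number 2 and wild type 5, limma called 3.31% of all tested probe sets.

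**Figure D5:**
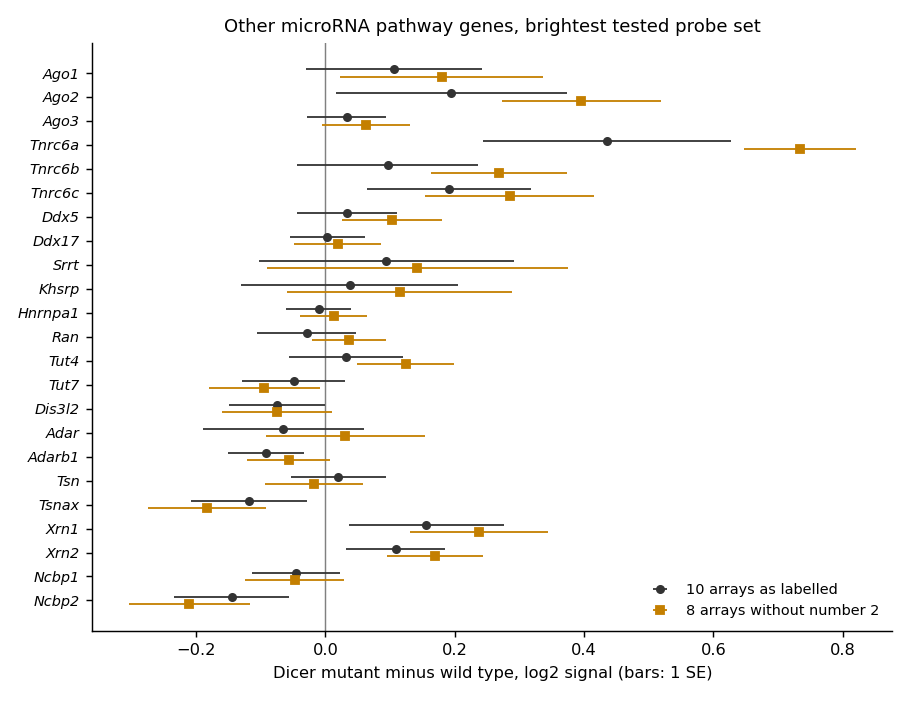
Dicer mutant minus wild type difference in log2 signal (bars, 1 standard error) for the 23 tested other microRNA pathway genes, each by its brightest tested probe set, in the 10 arrays as labelled (circles) and the 8 arrays without number 2 (squares). Tnrc6a stands highest in the 8 arrays at 0.73 and Ncbp2 lowest at -0.21.

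Tarbp2 and Prkra belong to the double-stranded RNA-binding proteins, so other genes of that kind were read as well. Of 12 listed, 11 were on the array and 10 passed the filter on dim signals, each read by its brightest tested probe set. In either comparison 0 of the 10 passed the test. Over all tested probe sets limma called 0% in the 10 arrays and 1.68% in the 8. The median log2 difference of the 10 genes in the 8 arrays was 0.01. An unadjusted p below 0.05 was seen there for 2 of the 10, where 12.7% of all tested probe sets had one, namely Cdkn2aip (0.22, limma adjusted p = 0.212) and Mrpl44, a mitochondrial ribosome protein (0.21, adjusted p = 0.353).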

How the data were processed

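Per the labels' protocols, biotinylated copies of limb bud RNA were made for Affymetrix arrays, 1 array for each sample. The authors deposited linear intensity values per probe set, and the submitters' processing notes name GCOS 1.3. The summarization method, scaling target and detection calls were not stated in the sources used here, so how far a dim signal lies above background cannot be given. The 2% trimmed means of the arrays differed by 4.76%, below the 10% that would have called for normalization, and they were used as deposited.

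Values were floored at 1 and log2-transformed. After removal of 64 control probe sets, those with a mean at or above the median were tested with limma 3.58.1 under R 4.3.3 (eBayes with trend), adjusted by Benjamini-Hochberg at 0.05 over all 22519. All member p-values come from that fit, except the exact permutation tests of Dicer1. The platform annotation named 34945 probe sets by 1 symbol, 932 by several and 9160 by none. The fit was tested on simulated data. The members, the 2 gene lists, the marker lists and the 8-array comparison were chosen with earlier results of these data known. Each gene of the 2 lists was read by its brightest tested probe set, and each marker by its brightest probe set. The text names every member probe set, and of each gene list the called members or otherwise those with the smallest p. For each member it names the 3 genes most correlated with its brightest tested probe set. Ago2, Ncbp2, Tnrc6b, Xrn2 and the most opposed genes of Dicer1 were named after their values were seen.

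The labels number the arrays 1 to 5 in both groups without saying why. The deviations from the group mean of arrays with equal numbers correlated at 0.426, -0.182, 0.266, 0.673 and 0.406 in the 10 arrays. The highest value with another number was 0.377, 0.557, 0.557, 0.518 and 0.518, and the numbers were not taken to pair the arrays. In the 8 arrays equal numbers gave 0.548, 0.546, 0.707 and 0.324, against at most 0.542, 0.542, 0.517 and 0.517 with another number. Pairing by number is thus not settled there, and the fit with the replicate number as a block is given beside the main one. Alternatives are given in the closing section.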

Additional observations from a re-analysis of the deposited data

Results flagged for a closer look

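Dicer1 stood far from the rest of its group in the array labelled Dicer mutant 2, at 359.7 for 1427941_at and 774.4 for 1460571_at. The gap to the nearest other mutant array took up 0.866 and 0.818 of the group's range, above Dixon's critical value of 0.71 for 5 samples. Dgcr8 stood far below the rest of its group in wild type 5, at 264.4 for 1435439_at and 269.9 for 1455311_at, with gap shares of 0.799 and 0.817. Chance alone flags about 1 in 20 groups, a rate for all 5 arrays of a group together and not for each array. Over all tested probe sets, the array labelled Dicer mutant 2 was flagged in 4.09% and wild type 5 in 3.63%. Each of the other arrays was flagged in 0.28% to 1.53%.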

How the results depend on the processing

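Of the 10 members other than Dicer1, 0 passed the test under any alternative in the 10 or the 8 arrays, which were other scalings (quantile, median centring), offsets of 16 and 64, a looser or stricter filter, a fit without trend, array weights, the replicate block, the division of numbers 1 to 3 from 4 and 5 as a term or as separate fits, and leaving out each array. The lowest adjusted p was 0.116 in the 10 and 0.0506 in the 8 arrays (Tarbp2 1438952_x_at with array weights, log2 differences of -0.26 and -0.28). The replicate block changed no member's call. Calls over all probe sets in the 8 arrays came to 2612 with array weights, 1219 with the replicate block and 1538 with the number division as a term, and to 93 (without wild type 3) up to 745 (without wild type 5) when 1 array was left out. In the permutation tests of the 10 arrays, Dicer1 ranged from -0.93 to -0.53 at 1427941_at and from -0.47 to -0.27 at 1460571_at. The exact permutation p was 0.0556 at 1427941_at without wild type 1, 3, 4 or 5. At 1460571_at it was 0.0952 to 0.135 when 1 array of another number than 2 was left out. The strongest differences, without wild type 2 or Dicer mutant 2, are descriptions with no test, because Dicer1 itself marked those arrays. The fits of numbers 1 and 3 and of 4 and 5, which lack number 2, gave -0.83 and -1.32 at 1427941_at. At 1460571_at they gave -0.50 and -0.65.
Signs turned in 14 of 229 member values in the 10 arrays and 13 of 199 in the 8, and the cause was not tested. With array weights, Dgcr8 1455311_at was at -0.032 in the 10 and -0.064 in the 8 arrays and Xpo5 1451468_s_at at -0.18 in the 8. In numbers 4 and 5 alone, Drosha 1438505_s_at was at -0.0029 and Xpo5 1451468_s_at at 0.105. Xpo5 1451468_s_at was at -0.066 in numbers 1 and 3 and at 0.020 without both arrays numbered 2. Leaving out 1 array gave, in the 10 arrays, -0.019 to 0.11 for Drosha 1428656_at, -0.036 to 0.073 for Drosha 1438505_s_at, -0.079 to 0.18 for Dgcr8 1422981_at, -0.11 to 0.0084 for Xpo5 1428560_at, -0.14 to 0.013 for Xpo5 1451468_s_at and -0.0046 to 0.046 for Prkra 1448923_at. In the 8 arrays it gave -0.023 to 0.15 for Drosha 1428656_at, -0.00036 to 0.44 for Dgcr8 1455311_at, -0.11 to 0.028 for Xpo5 1428560_at and -0.075 to 0.092 for Xpo5 1451468_s_at.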
